A study of Homo sapiens with 4 samples.

Results

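The genes described here are 10 components and targets of the aryl hydrocarbon receptor (AhR) and NRF2 pathways, with which cells respond to foreign chemicals and oxidants. They were chosen by symbol (AHR, ARNT, AHRR, CYP1B1, CYP1A1, TIPARP, NQO1, NFE2L2, KEAP1 and TXNRD1) with differences of this experiment in view, out of 25133 rows with a gene symbol. All 10 were found, and all 10 had a mean of at least 1 FPKM (fragments scaled to gene length and library depth), the limit for entering the fit. Because they were chosen in this way, their differences between groups are given as a description and without a test.

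RNA was sequenced from MDA-MB-231, an established triple-negative human breast cancer line. The control group shSCR is labelled WT and received lentivirus with a scrambled short hairpin, and the group shJARID2 received a hairpin against JARID2, an accessory subunit of Polycomb repressive complex 2. Both groups were infected with Polybrene and grown in serum-containing medium, and the labels name no AhR ligand or oxidant for either. Each group had 2 libraries from 1 cell line and 1 hairpin name, and the labels do not say whether they came from separate cultures, so each p-value reflects just the spread among these 4 libraries.

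AhR is a ligand-activated transcription factor of the bHLH-PAS family that waits in the cytoplasm bound to HSP90 and its cochaperones. Dioxins, polycyclic aromatic hydrocarbons and tryptophan metabolites bring it to the nucleus, where it pairs with ARNT and binds xenobiotic response elements at genes such as CYP1A1, CYP1B1, TIPARP and AHRR. NRF2, the product of NFE2L2, is held at a low level by KEAP1, the substrate adaptor of a CUL3 ubiquitin ligase, and binds antioxidant response elements of genes such as NQO1 and TXNRD1 when KEAP1 is modified by electrophiles.

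The promoters of 4 of the genes are shown because they carry the sequence cores by which the 2 pathways are usually recognised and because their genes took different courses, with TIPARP and NQO1 higher in shJARID2, TXNRD1 lower and CYP1A1 overlapping between groups. Each is the 250 bases before the first start that RefSeq lists (GRCh38.p14), 5′ to 3′ on the strand of the gene. They lie at chr3:156674340-156674589 on the + strand, chr15:74725529-74725778 on the - strand, chr16:69726561-69726810 on the - strand and chr12:104215529-104215778 on the + strand. Capitals mark matches to the xenobiotic response element core GCGTG and to the antioxidant response element TGANNNNGC, each also where it lies on the opposite strand.
TIPARP: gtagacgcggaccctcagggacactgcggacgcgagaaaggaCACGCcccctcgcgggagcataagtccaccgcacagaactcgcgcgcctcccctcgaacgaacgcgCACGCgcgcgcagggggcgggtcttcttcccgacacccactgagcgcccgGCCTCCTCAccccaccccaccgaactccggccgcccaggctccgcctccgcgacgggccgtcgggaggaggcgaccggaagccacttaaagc
CYP1A1: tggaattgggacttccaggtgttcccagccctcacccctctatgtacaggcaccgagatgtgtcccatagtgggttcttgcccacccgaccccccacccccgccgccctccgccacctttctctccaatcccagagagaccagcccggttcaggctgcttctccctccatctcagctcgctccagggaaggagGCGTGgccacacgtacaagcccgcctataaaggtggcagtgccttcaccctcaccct
NQO1: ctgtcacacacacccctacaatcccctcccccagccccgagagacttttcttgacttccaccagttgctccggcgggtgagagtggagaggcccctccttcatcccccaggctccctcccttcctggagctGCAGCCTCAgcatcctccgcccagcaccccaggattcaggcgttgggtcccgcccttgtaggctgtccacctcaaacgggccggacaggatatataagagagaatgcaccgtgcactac
TXNRD1: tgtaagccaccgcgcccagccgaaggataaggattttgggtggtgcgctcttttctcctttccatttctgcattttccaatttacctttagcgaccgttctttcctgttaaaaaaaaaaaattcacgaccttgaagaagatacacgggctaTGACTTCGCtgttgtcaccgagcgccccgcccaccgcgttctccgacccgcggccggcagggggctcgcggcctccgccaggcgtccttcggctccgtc

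RefSeq promoter windows were found for 9 of the 10 genes (15 windows, since several genes have more than 1 start), and none was matched for CYP1B1. GCGTG was present in 8 of the 15 windows (6 of the 9 genes), beside 32.2% of all 35116 windows of this length. Of the shown promoters, TIPARP held 2 matches, from 208 to 204 and from 142 to 138 bases before the start, and CYP1A1 held 1, from 57 to 53 bases before it. The other windows of TIPARP held no match to GCGTG. The longer form TNGCGTG, which contains GCGTG, was present in 3 of the 15 windows (of AHRR, NFE2L2 and KEAP1), beside 4.52% of all windows. TGANNNNGC was present in 7 of the 15 windows (of ARNT, TIPARP, NQO1, NFE2L2, KEAP1 and TXNRD1), beside 35.2% of all windows. The core GCGTG also occurs in hypoxia response elements, and a match describes letters and not binding. The GC content of the 15 windows ran from 38% to 79.2%. The windows of all genes were not matched to them for GC, so the shares are no measure of enrichment.

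The knockdown was visible in the targeted transcript. JARID2 measured 10.8 and 10.8 FPKM in shSCR, against 3.88 and 3.91 in shJARID2 (log2 difference -1.27, SE 0.059, adjusted p = 0.0014, limma, Benjamini-Hochberg). The libraries held about 12800000 to 16200000 counted reads. Among cell line markers CD44 (68.9 to 79.7 FPKM), EGFR and AXL were abundant, AXL at 393 and 417 FPKM in shSCR but 167 and 186 in shJARID2, and the luminal genes ESR1, PGR, GATA3 and CDH1 were below 1 FPKM in all 4 libraries. ERBB2, the other gene on the luminal list, stood at 15.5 and 15.7 FPKM in shSCR, against 6.58 and 7.57 in shJARID2. VIM, usually abundant in this line, was at 2.10 to 4.20 FPKM, and other genes overlap 24.4% of its exon bases. A low value here thus need not mean low expression, and the part of the overlap was not tested. Of 15 haematopoietic, endothelial and fibroblast or muscle markers, 13 were below 1 FPKM throughout and DES was at 0. The summed haematopoietic markers stood at 0.718 to 0.860 FPKM in shSCR and 0.604 to 0.646 in shJARID2. The endothelial sum was 1.57 to 1.74 against 0.817 to 0.900 FPKM, and the fibroblast and muscle sum was 3.13 to 3.37 against 1.62 to 2.33 FPKM. The part of other cells in the results was not tested, and in bulk RNA fewer expressing cells and less RNA per cell cannot be told apart.

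Over all 12455 genes tested, 59.7% were called, 28.0% higher and 31.6% lower (limma, adjusted p below 0.05). Differences between the groups followed the GC content of transcripts (Spearman's rho of -0.72 across 10435 protein-coding genes, which are not independent replicates), with GC-rich transcripts lower in shJARID2. A value with this trend removed from each library, called GC-corrected, is therefore given beside each measured one. All log2 differences are of FPKM + 1, shJARID2 minus shSCR, a scale that understates the change of genes near 1 FPKM.

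Of the 10 genes, 5 (CYP1B1, TIPARP, NQO1, KEAP1 and NFE2L2) were higher in both shJARID2 libraries than in either shSCR library, and 3 (AHR, ARNT and TXNRD1) were lower in both. Such separation was common: 39.8% of all tested genes lay higher and 43.1% lower without overlap. AHRR and CYP1A1 overlapped between the groups. The receptor and its partner thus stood on one side and the AhR targets CYP1B1 and TIPARP on the other, while the AhR targets CYP1A1 and AHRR stood on neither.

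**Figure D1:**
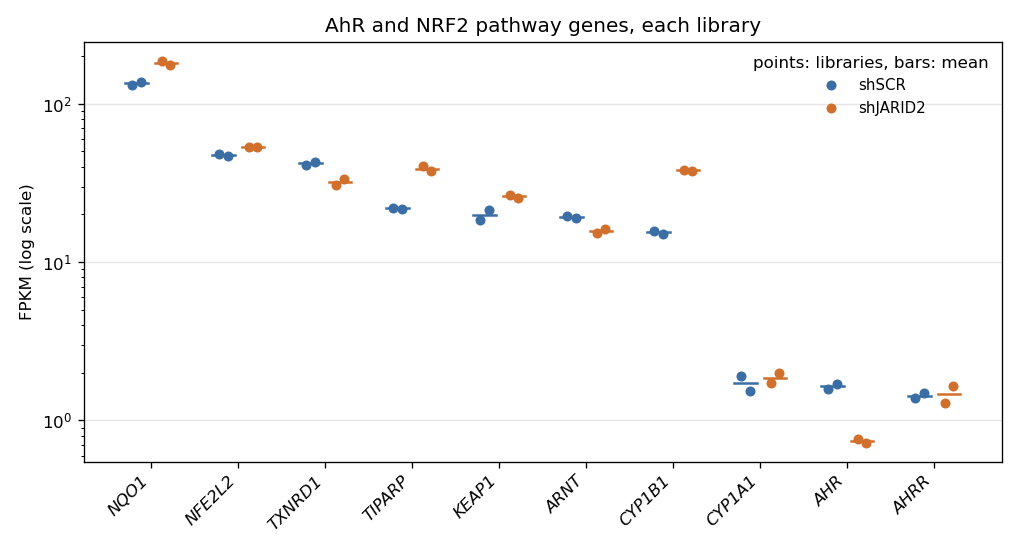
FPKM of the 10 AhR and NRF2 pathway genes on a log scale, with 1 point per library, a bar at each group's mean, and genes ordered by their mean in shSCR. CYP1B1 moves from 15.1 and 15.7 FPKM to 37.8 and 38.2, and AHR from 1.58 and 1.70 to 0.725 and 0.764, while the points of CYP1A1 and AHRR overlap.

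The receptor gene AHR lies on the + strand of chromosome 7, from 16916359 to 17346152 (GRCh38, GENCODE release 29, as for all genes below). AHR measured 1.58 and 1.70 FPKM in shSCR, against 0.764 and 0.725 in shJARID2. Both knockdown libraries were below both controls, at a ratio of means of 0.453 (log2 difference -0.60, SE 0.12, GC-corrected -0.97). On recovered reads, with no pseudocount of 1 FPKM, the log2 difference was -1.14. These values rest on 198 and 223 reads in shSCR and on 80 and 75 in shJARID2, and the 95% Poisson intervals of the knockdown libraries (0.606 to 0.951 and 0.570 to 0.909 FPKM) stayed below those of the controls (1.37 to 1.82 and 1.49 to 1.94). These intervals cover counting error only and are no test of the difference. Across genes, replicates differed by more than counting error (chi-square per degree of freedom of 3.21 in shSCR and 3.71 in shJARID2). The intervals may therefore be too narrow for the spread between libraries.

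The annotation limits how the level of AHR can be read. A second protein-coding gene model on the same strand, AC019117.2, covers 29.4% of the annotated exon bases of AHR, and an antisense gene covers 3.34%, for 32.3% in all. How reads in shared exons were counted is not given in the sources used here, and the part of this overlap in the low level of AHR was not tested.

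ARNT, the partner with which AhR binds DNA, lies on the - strand of chromosome 1, from 150809705 to 150876768. It measured 19.5 and 19.0 FPKM in shSCR, against 15.2 and 16.1 in shJARID2. Both knockdown libraries were lower, at a ratio of 0.812 (log2 difference -0.28, SE 0.052, GC-corrected -0.31). Since AHR differed by more than ARNT, the FPKM ratio of ARNT to AHR within a library, which no scaling of libraries can alter, was 12.4 and 11.2 in shSCR, against 19.9 and 22.2 in shJARID2.

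AHRR encodes a repressor that competes with AhR for ARNT and is itself induced by AhR. The gene lies on the + strand of chromosome 5, from 304176 to 438291. It measured 1.38 and 1.49 FPKM in shSCR, against 1.29 and 1.64 in shJARID2. The knockdown libraries lay on either side of the controls (log2 difference 0.014, SE 0.13), and the sign of the difference changed with the library left out. Its transcripts are GC-rich (62.4%), and the GC-corrected difference was 0.73.

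CYP1B1, which hydroxylates oestradiol and activates polycyclic hydrocarbons, showed the largest difference of the 10 genes. It lies on the - strand of chromosome 2, from 38066973 to 38109902. CYP1B1 measured 15.7 and 15.1 FPKM in shSCR, against 38.2 and 37.8 in shJARID2. Libraries of a group lay close together and the groups far apart, at a ratio of 2.47 (log2 difference 1.25, SE 0.044). The GC-corrected difference was larger, at 1.64, as the transcripts are GC-rich (56.1%). The value stayed between 1.23 and 1.64 over 14 other settings. An antisense gene, CYP1B1-AS1, covers 11.3% of its exon bases, and whether the counting used strand is not given in the sources used here.

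CYP1A1, the classical inducible AhR target and a close relative of CYP1B1, lies on the - strand of chromosome 15, from 74719542 to 74725610. It measured 1.90 and 1.53 FPKM in shSCR, against 1.73 and 2.00 in shJARID2. The groups overlapped (log2 difference 0.081, SE 0.13, GC-corrected 0.32). Each value rests on 77 to 101 reads, and all 4 Poisson intervals overlapped one another, the lowest running from 1.22 to 1.89 FPKM and the highest from 1.60 to 2.47. The ratio of CYP1B1 to CYP1A1 was 8.25 and 9.90 in shSCR, against 22.1 and 18.9 in shJARID2.

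TIPARP encodes a mono-ADP-ribosyltransferase that is induced by AhR and dampens it in turn. It lies on the + strand of chromosome 3, from 156673235 to 156706770. TIPARP measured 22.1 and 21.6 FPKM in shSCR, against 40.3 and 37.5 in shJARID2. Both knockdown libraries were well above the controls, at a ratio of 1.78 (log2 difference 0.80, SE 0.053). The transcripts are GC-poor (42.7%) and the GC-corrected difference was smaller, at 0.52. Against ARNT in the same library, TIPARP stood at 1.13 and 1.13 in shSCR and at 2.64 and 2.33 in shJARID2.

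On the NRF2 side, the factor and its inhibitor were both higher in shJARID2, the inhibitor by more. NFE2L2, on the - strand of chromosome 2, from 177227595 to 177392697, measured 48.2 and 47.0 FPKM in shSCR, against 53.0 and 53.4 in shJARID2. The groups were separate but close, at a ratio of 1.12 (log2 difference 0.16, SE 0.040). The sign turned with the GC correction (-0.070), and a gene model on the same strand, AC019080.1, covers 17.6% of its exon bases.

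KEAP1 lies on the - strand of chromosome 19, from 10486120 to 10503741. It measured 18.5 and 21.3 FPKM in shSCR, against 26.7 and 25.3 in shJARID2. Both knockdown libraries were above both controls, at a ratio of 1.31 (log2 difference 0.37, SE 0.081). With 62.1% GC its transcripts belong to a range in which the median protein-coding gene was lower in shJARID2 (-0.76 for 62% to 64%), and the GC-corrected difference was 1.08. The ratio of NFE2L2 to KEAP1 within a library was 2.60 and 2.21 in shSCR, against 1.98 and 2.11 in shJARID2, so that the groups were separated by less than the distance between the control libraries.

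NQO1, a quinone reductase induced through both pathways, was the most abundant of the 10. It lies on the - strand of chromosome 16, from 69706996 to 69726951. NQO1 measured 132 and 138 FPKM in shSCR, against 185 and 176 in shJARID2. Both knockdown libraries were higher, at a ratio of 1.34 (log2 difference 0.42, SE 0.048, GC-corrected 0.39). An antisense gene, AC092115.2, covers 17.7% of its exon bases.

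TXNRD1, the cytosolic thioredoxin reductase and like NQO1 a standard NRF2 target, went the other way. It lies on the + strand of chromosome 12, from 104215779 to 104350305. TXNRD1 measured 41.1 and 43.0 FPKM in shSCR, against 30.6 and 33.4 in shJARID2. Both knockdown libraries were lower, at a ratio of 0.761 (log2 difference -0.38, SE 0.061, GC-corrected -0.52). The ratio of NQO1 to TXNRD1 within a library was 3.22 and 3.20 in shSCR, against 6.05 and 5.28 in shJARID2.

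**Figure D2:**
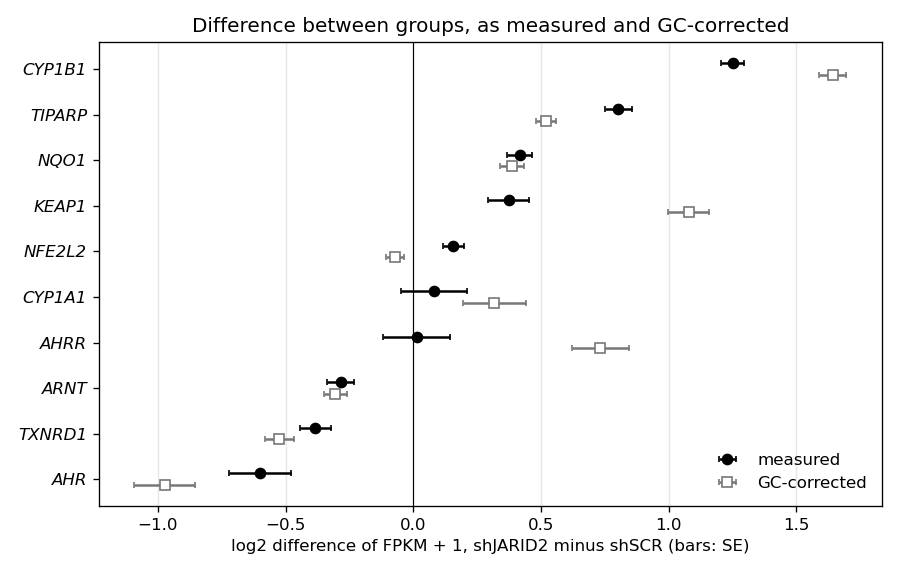
Log2 differences of FPKM + 1 between shJARID2 and shSCR (horizontal axis) for the 10 genes, as measured (filled circles) and GC-corrected (open squares), with bars of 1 SE. CYP1B1 is highest by both measures (1.25 and 1.64) and AHR lowest (-0.60 and -0.97), while KEAP1 and AHRR shift upward with the correction and NFE2L2 crosses 0.

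The order of the genes by FPKM differed between the groups for all but NQO1, NFE2L2 and CYP1A1, which kept their places. This is the order of the listed values. Shared exons and the unknown counting of their reads limit how far levels of different genes can be compared. In shSCR the means ran from NQO1 (135) through NFE2L2 (47.6), TXNRD1 (42.1), TIPARP (21.9), KEAP1 (19.9), ARNT (19.3) and CYP1B1 (15.4) to CYP1A1 (1.71), AHR (1.64) and AHRR (1.43). The libraries of KEAP1 and ARNT overlapped in this order, as did those of CYP1A1 and AHR. In shJARID2 TIPARP (38.9) and CYP1B1 (38.0), which overlapped with each other, stood above TXNRD1 (32.0), KEAP1 (26.0) and ARNT (15.7), and AHR was last (0.745).

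**Figure D3:**
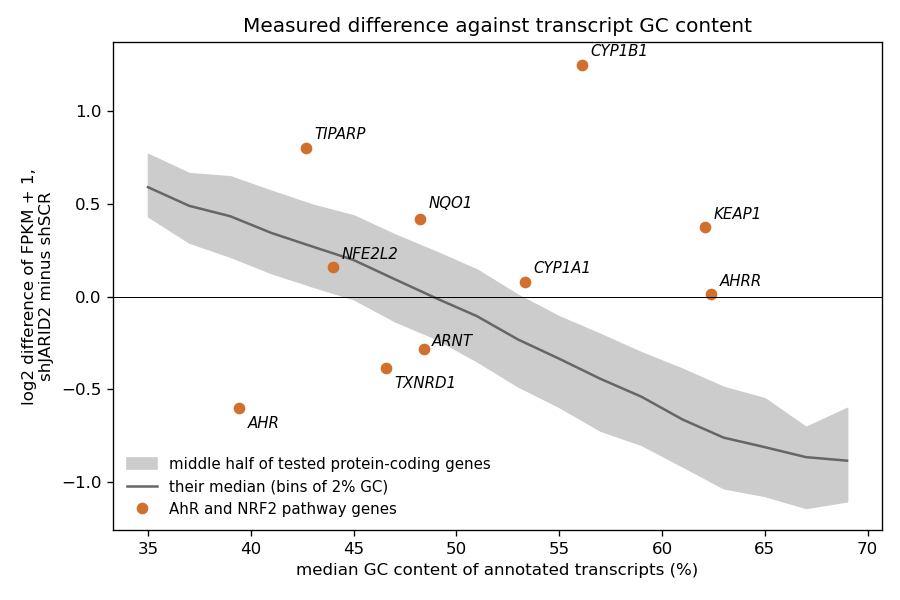
Measured log2 difference (vertical axis) against the median GC content of a gene's annotated transcripts (horizontal axis), with the 10 genes as points and the median and middle part (25th to 75th percentile) of tested protein-coding genes in bins of 2% GC as a line and band. CYP1B1, KEAP1 and AHRR, at 56.1% to 62.4% GC, lie above the falling band, as do TIPARP, NQO1 and CYP1A1. AHR, at 39.4% GC, lies below it, as do ARNT and TXNRD1, and NFE2L2 lies within it.

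The GC content of the 10 genes ran from 39.4% in AHR to 62.4% in AHRR. AHR, with GC-poor transcripts, was low where GC-poor genes were mostly high, and KEAP1, with GC-rich transcripts, was high where GC-rich genes were mostly low. The correction raised the difference of 4 genes and lowered that of 6, and NFE2L2 alone of those with separate groups changed sign. The median over the 10 was 0.12 as measured and 0.35 GC-corrected, beside -0.018 and 0.00034 over all genes tested.

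Other genes of the 2 pathways were taken from lists drawn up by function, with earlier results of these data known, so their counts are no independent evidence of a direction. Among 11 partners and chaperones of AhR, 10 were above 1 FPKM and none rose, 5 fell and 5 did not pass (1 higher and 6 lower GC-corrected), beside 28.0% higher and 31.6% lower over all genes (22.7% and 21.5% GC-corrected). PTGES3, the HSP90 cochaperone of the cytoplasmic AhR complex, fell from 7.48 and 8.16 to 3.66 and 3.35 FPKM (log2 difference -0.97, GC-corrected -1.27). HSP90AA1, the inducible HSP90 isoform, fell from 414 and 429 to 249 and 255 FPKM (-0.74, GC-corrected -0.99), and the kinase SRC (-0.80, GC-corrected -0.23) and the coactivator CREBBP (-0.45, GC-corrected -0.43) fell too. The constitutive isoform HSP90AB1 was at 373 and 377 FPKM in shSCR, against 367 and 364 in shJARID2 (adjusted p = 0.47, limma).

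Of 11 relatives of AhR and ARNT in the bHLH-PAS family that were tested, 3 rose and 4 fell, close to the shares over all genes of 28.0% and 31.6%. GC-corrected, 1 was higher and 1 lower, below the shares of 22.7% and 21.5% over all genes. ARNTL2, a partner of the circadian factor CLOCK, rose from 19.96 and 19.3 to 28.5 and 26.7 FPKM (0.47, GC-corrected 0.15). The circadian repressor PER1 fell from 2.77 and 3.15 to 1.01 and 1.04 FPKM (-0.97), a call that was lost GC-corrected (-0.24), as were those of PER2 (-0.45 and -0.11) and NPAS1 (-0.61 and 0.32). PER2 did not pass when any 1 library was left out, and NPAS1 did not pass without either shSCR library or without shJARID2 replicate 2. NPAS2 (-0.13) and PER3 (-0.18) did not pass as measured, and PER3 did GC-corrected (-0.35).

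Of 17 further AhR-inducible genes, 14 had a mean below 1 FPKM and were not tested. CDKN1B, a CDK inhibitor gene that AhR can induce, rose from 13.9 and 13.7 to 24.4 and 22.3 FPKM (0.72, GC-corrected 0.57, adjusted p = 0.0018, limma). SLC7A5, a large neutral amino acid transporter gene, fell from 116 and 123 to 80.6 and 91.8 FPKM (-0.47), but was called higher GC-corrected (0.16), and did not pass without shSCR replicate 2. KYNU, kynureninase, was at 3.24 to 3.51 FPKM and did not pass as measured (-0.029), but was called lower GC-corrected (-0.41).

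Below the limit, 3 genes were singled out after their values were seen. ALDH3A1, an aldehyde dehydrogenase of the classical AhR battery, was at 0.988 and 1.01 FPKM in shSCR (60 and 64 reads) and was listed at 0 and 0.0797 in shJARID2 (0 and 4 reads). CYP2S1, an AhR-inducible P450, was at 1.48 and 1.29 FPKM in shSCR, against 0.349 and 0.571 in shJARID2. EREG, an EGF receptor ligand, was at 0.260 and 0.205 FPKM in shSCR, against 0.864 and 1.01 in shJARID2. The groups did not overlap in any of the 3, but the 3 were picked with these values in view, so their separation is no evidence. Most other genes of the list below the limit overlapped between the groups, but PTGS2 did not (0.894 and 0.774 against 1.01 and 1.02 FPKM). The share that overlaps among all genes below the limit was not counted. The classical targets CYP1A2, UGT1A1 and UGT1A6 were at most 0.115 FPKM in any library.

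Of 9 enzymes that turn tryptophan into AhR ligands or act next to them, 4 had a mean of at least 1 FPKM. Of these 4, 1 rose and 1 fell (1 and 1 GC-corrected), beside 28.0% and 31.6% of all genes (22.7% and 21.5% GC-corrected). IDO1 was listed at 0 in all 4 libraries. AADAT, a kynurenine aminotransferase, rose from 3.90 and 3.34 to 5.52 and 6.05 FPKM (0.56, GC-corrected 0.25), and AFMID, kynurenine formamidase, fell (-0.32, GC-corrected -0.062). Both calls were lost GC-corrected and without shSCR replicate 2, that of AFMID also without shSCR replicate 1 and without shJARID2 replicate 2. KYAT1, another kynurenine aminotransferase, did not pass as measured (0.14, from 9.14 to 11.9 FPKM over the libraries), and passed GC-corrected (0.54) and without shJARID2 replicate 1.

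Among 12 regulators and partners of NRF2, 9 were tested, 3 rose and 4 fell (2 and 4 GC-corrected), beside 28.0% and 31.6% of all genes. BACH1 (0.46, GC-corrected 0.19) and GSK3B (0.62, GC-corrected 0.44) rose by both measures, and NFE2L3 rose as measured but lost its call GC-corrected. MAFG, a small MAF protein with which NRF2 pairs, fell from 17.3 and 19.4 to 8.21 and 8.93 FPKM (-1.02, GC-corrected -0.56). NFE2L1, a related cap'n'collar factor, fell from 35.9 and 38.8 to 18.3 and 18.6 FPKM (-0.98, GC-corrected -0.63). SQSTM1, the autophagy receptor that binds KEAP1, fell (-0.89, GC-corrected -0.25), although other genes overlap 22.0% of its exon bases, and the small MAF gene MAFF fell (-0.65), a call lost GC-corrected (-0.079) and without shSCR replicate 2. CUL3, the ligase to which KEAP1 delivers NRF2, was at 11.2 to 12.2 FPKM and did not pass as measured (0.05), but was called lower GC-corrected (-0.38). BTRC, of the alternative ligase for NRF2, did not pass (-0.022), and RBX1, the RING subunit of both ligases, was at 0.278 to 0.499 FPKM, below the limit.

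NRF2 targets other than the 10 genes went in both directions. Of 29 tested, 13 rose and 12 fell, beside 28.0% and 31.6% of all genes. GC-corrected, 12 were higher and 7 lower, beside 22.7% and 21.5% of all genes, with 11 and 7 called in the same direction by both measures. Without the 7 genes that may share reads with other genes, 10 of 22 rose and 8 fell. The median log2 difference was 0.21 (GC-corrected 0.25), beside -0.018 (GC-corrected 0.00034) over all genes tested.

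SLC7A11, the cystine importer that feeds glutathione synthesis, rose from 35.3 and 32.6 to 75.8 and 74.1 FPKM (1.12, GC-corrected 0.72, adjusted p = 0.0014, limma). TXN, thioredoxin and the substrate of TXNRD1, rose from 160 and 161 to 497 and 418 FPKM (1.5, GC-corrected 1.0), although 7 annotated pseudogene copies make this call uncertain. The ratio of TXN to TXNRD1 within a library was 3.89 and 3.73 in shSCR, against 16.2 and 12.5 in shJARID2. FTH1, the ferritin heavy chain, fell from 49.4 and 82.3 to 5.14 and 5.0 FPKM (-3.42, GC-corrected -3.17), a call that is uncertain because of 25 pseudogene copies and of other genes that overlap 62.4% of its exon bases. The exporter ABCC1 (-0.14) and the isocitrate dehydrogenase IDH1 (0.21) did not pass as measured, and ABCC1 was called higher GC-corrected (0.29).

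**Figure D4:**
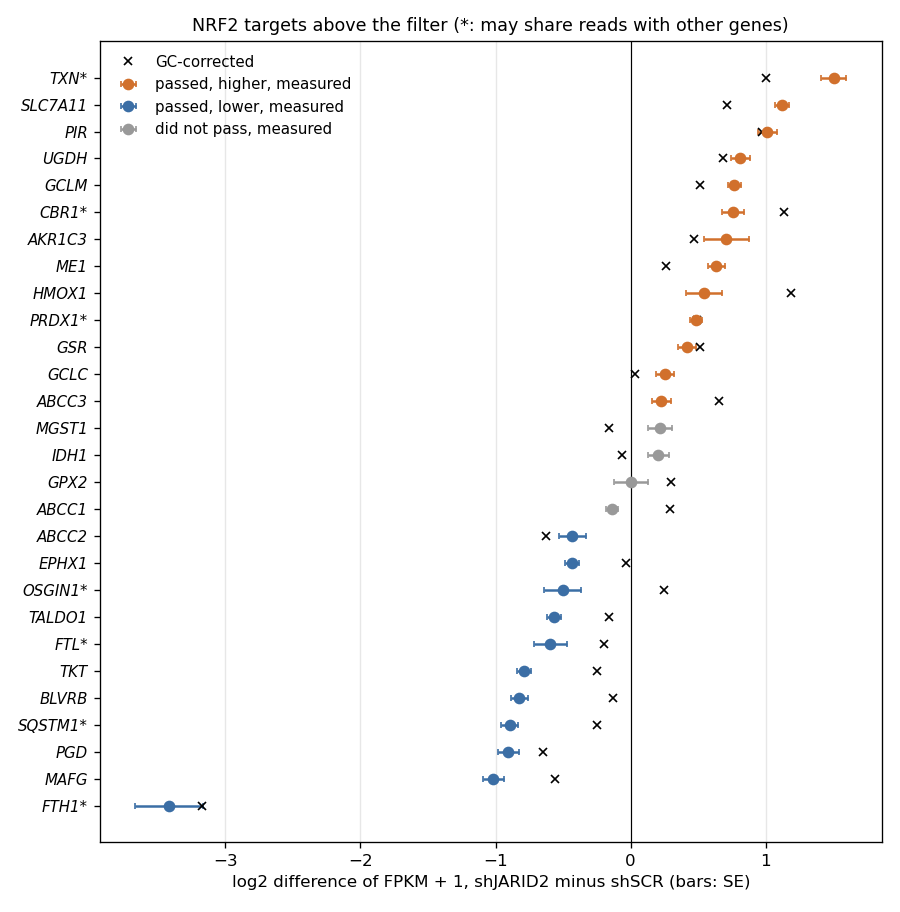
Log2 differences of FPKM + 1 between shJARID2 and shSCR (horizontal axis, bars of 1 SE) for 28 of the 29 NRF2 targets above 1 FPKM, coloured by whether they passed the test, with GC-corrected values as crosses and a star on genes that may share reads with others. TXN (1.5) is at the top and FTH1 (-3.42) at the bottom, and all genes drawn that fell, except ABCC2, lie closer to 0 with the correction.

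Within this list, 2 groups of genes were singled out after their values were seen. Of the glutathione genes, the ligase subunits GCLM (16.2 and 15.8 to 28.4 and 27.5 FPKM, 0.77, GC-corrected 0.51) and GCLC (0.26, GC-corrected 0.04) and the reductase GSR (0.42, GC-corrected 0.51) rose. The call of GCLC was lost GC-corrected and when any 1 library was left out. The pentose phosphate pathway genes PGD (-0.91), TKT (-0.79) and TALDO1 (-0.57) fell. Their GC-corrected values were -0.65, -0.25 and -0.16, and all 3 passed. HMOX1, haem oxygenase, rose from 5.88 and 6.58 to 8.38 and 10.8 FPKM (0.54, GC-corrected 1.19), a call lost without either shSCR library and with no filter on low values. The NRF2 target PIR rose from 4.01 and 4.25 to 9.04 and 9.64 FPKM (1.01, GC-corrected 0.97).

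Of 10 tested genes of the thioredoxin and peroxiredoxin system around TXNRD1, 5 rose and 3 fell (4 and 3 GC-corrected), beside the same shares of all genes. Those that rose included TXN, TXN2 and PRDX6 (126 and 127 to 202 and 206 FPKM), each also called higher GC-corrected. PRDX2, a cytosolic peroxiredoxin, fell from 30.0 and 35.1 to 6.38 and 8.47 FPKM (-2.00, GC-corrected -1.48), although other genes overlap 14.1% of its exon bases. PRDX4, the peroxiredoxin of the endoplasmic reticulum, fell (-1.17, GC-corrected -1.05), as did PRDX5 (-1.16), whose call was lost GC-corrected (-0.52). PRDX3 of mitochondria (-0.13) and the mitochondrial reductase TXNRD2 (-0.42) did not pass as measured, and TXNRD2, the paralog of TXNRD1, went from 2.05 and 2.30 to 1.18 and 1.59 FPKM. PRDX3 was called lower GC-corrected (-0.46).

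**Figure D5:**
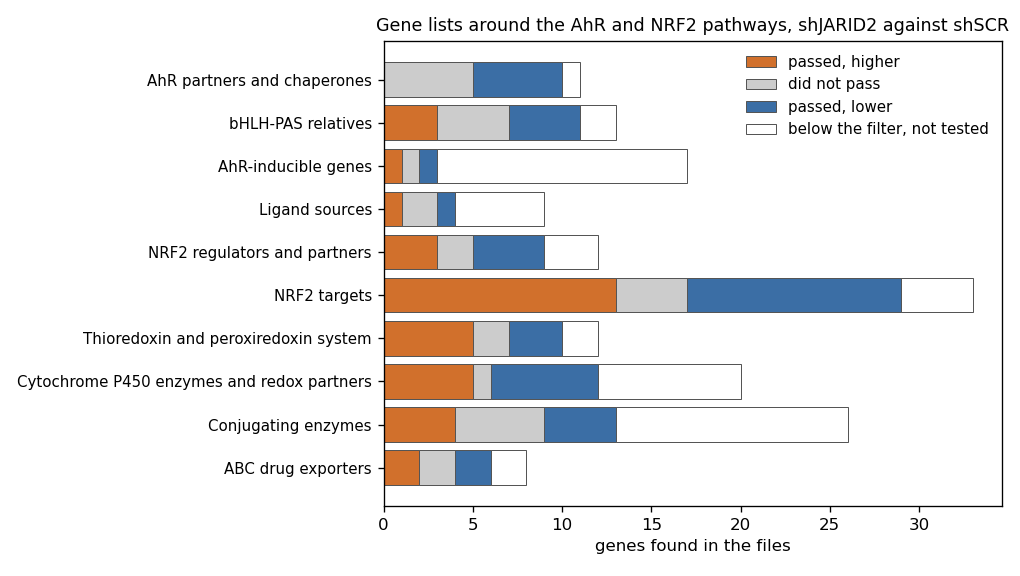
Number of genes in each list that passed the test higher or lower in shJARID2, did not pass, or lay below the limit of 1 FPKM and were not tested. Among NRF2 targets 13 rose and 12 fell, among AhR partners and chaperones none rose and 5 fell, and 14 of 17 AhR-inducible genes were not tested.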

How the data were processed

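RNA-seq of 4 MDA-MB-231 libraries (2 shSCR and 2 shJARID2) was analysed. Per the file headers, the authors deposited FPKM for 85553 rows per library, and the 60420 without a gene symbol were left out. The submitters' processing notes name Trimmomatic, HISAT2, SAMtools and featureCounts. Tool versions, genome build, annotation and use of strand: not given in the sources used here. FPKM multiplied by exon lengths of GENCODE release 29 fell on whole reads (95.8% to 96.3% of values up to 20 reads within 0.05), which gave the depths and read numbers.

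Genes with a mean of at least 1 FPKM (12455) entered limma 3.58.1 (R 4.3.3) as log2(FPKM + 1) (trend, group as the only term), with Benjamini-Hochberg adjustment and a threshold of 0.05. GC-corrected values subtract from each library a loess fit (span 0.3) of deviations on transcript GC content. The fit was checked on simulated reads without a GC trend. It recovered 82% of 100 changes of 2-fold and 95.9% of 97 changes of 4-fold, with 17 false calls among 11915 genes. Few genes were changed in it, and none by less than 2-fold, so it covers neither smaller changes nor data in which most genes differ. Since the data hold a GC trend, this check does not cover calls that follow it. Genes with 6 or more pseudogene copies or 10% or more shared exon bases are called uncertain, a rule chosen after seeing the data. Among the 10 genes this covers AHR, NFE2L2, NQO1 and CYP1B1. The 10 genes and the lists were chosen with earlier results of these data known. Named genes per list are the 4 largest called and the 2 most abundant not called; any other was picked with its values in view. Values of 2 listed genes are not reported here. Alternatives were other pseudocounts, filters and scalings, limma-voom, a replicate term, the GC correction and leaving out each library.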

Additional observations from a re-analysis of the deposited data

How the results depend on the processing

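With 2 libraries per group, precision is limited by their number. JARID2 stayed lower and called under all 14 alternatives (-1.15 to -1.47). Of the 10 genes, the 8 with separate groups kept their direction under all 14 alternatives, except NFE2L2 with the GC correction (-0.070, with or without the replicate block). AHR ranged from -1.14 to -0.57, the former on recovered reads. Leaving out 1 library gave -0.089 to 0.12 for AHRR and -0.017 to 0.18 for CYP1A1.

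Over all genes, 3493 higher and 3941 lower became 2168 to 3068 and 2462 to 3763 when 1 library was left out, the lowest without shSCR replicate 2. Lower genes numbered 2584 GC-corrected and 2328 GC-corrected with the replicate block. NRF2 targets numbered 9 to 12 higher and 9 to 11 lower with 1 library left out, and 7 lower GC-corrected, with or without the block. AhR-inducible genes numbered 2 higher and 3 lower with no filter, 2 lower with 1 FPKM required in 2 libraries, 2 higher GC-corrected (also with the block), and 0 to 1 lower and 1 higher with 1 library left out, the 0 without shSCR replicate 2. The other lists together (23 higher, 29 lower) gave 14 higher GC-corrected with the block, and 13 to 17 higher and 20 to 25 lower with 1 library left out. The cause was not tested.

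Whether libraries with the same replicate number were handled together is not known. The replicate differences of the groups were hardly correlated across genes (Pearson's r = 0.029, Spearman's rho = 0.097), which cannot settle it. As a replicate block the numbers gave 3380 higher and 3831 lower genes and ended the calls of ABCC3, AFMID, GCLC, NPAS1 and PER2. With no filter on low values, the calls of ABCC2, ABCC3, AFMID, GSTM4, HMOX1, NPAS1, PER2 and TPMT ended, and with a pseudocount of 0.1 that of ABCC3.

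Among the list genes whose values the text gives, signs turned with the GC correction, with and without the block, for ABCC1 (0.29), CUL3 (-0.38), IDH1 (-0.061), MGST1 (-0.16), NPAS1 (0.32), SLC7A5 (0.16) and TXNRD2 (0.20). Uncalled values near 0 turned with median-ratio scaling (BTRC 0.029, HSP90AB1 0.020, KYNU 0.016) and with TMM scaling (0.012, 0.0014 and 0.0013). Leaving out 1 library gave values on both sides of 0 for BTRC (-0.072 to 0.028), CYB5A (-0.10 to 0.011), GSTO1 (-0.0038 to 0.079), KYAT1 (-0.033 to 0.31) and KYNU (-0.075 to 0.018).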

Other observations

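Other enzymes of xenobiotic metabolism were called at shares to be read beside those over all genes, 28.0% higher and 31.6% lower (22.7% and 21.5% GC-corrected). Of 20 P450 genes and redox partners besides CYP1B1 and CYP1A1, 12 were tested, 5 rose and 6 fell (4 and 3 GC-corrected). Those that rose were CYP2R1 (0.74, GC-corrected 0.44), CYP2U1, CYP4V2 and CYP20A1, each also called higher GC-corrected, and CYP3A5, whose call was lost GC-corrected. POR, the reductase that passes electrons to microsomal P450s, fell from 6.44 and 7.27 to 2.83 and 2.56 FPKM (-1.09, GC-corrected -0.51), so that CYP1B1 and its electron donor stood on opposite sides. CYP51A1, lanosterol demethylase, fell (-1.38, GC-corrected -1.71), although other genes overlap 83.2% of its exon bases. CYB5R3 (-0.93, GC-corrected -0.26) and the retinoic acid hydroxylase CYP26B1 (-0.75, GC-corrected -0.32) fell as measured and lost their calls GC-corrected. CYB5A did not pass (-0.05).

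Among 26 conjugating enzymes found, 13 were tested, 4 rose and 4 fell (3 and 2 GC-corrected), near the shares over all genes. GSTP1, the main glutathione transferase here, fell from 92.5 and 99.6 to 49.2 and 47.9 FPKM (-0.97, GC-corrected -0.29), and GSTA4, which conjugates lipid aldehydes, rose from 11.5 and 12.5 to 22.7 and 21.6 FPKM (0.84, GC-corrected 0.59). TPMT (0.77, GC-corrected 0.42) and GSTM4 (-0.51, GC-corrected -0.24) passed as measured but neither GC-corrected nor without shSCR replicate 2, and each lost its call without 1 shJARID2 library as well. GSTO1 (0.04) and MGST1 (0.22) did not pass. Of 6 ABC exporters tested, 3 of them also counted among NRF2 targets, 2 rose and 2 fell (3 and 2 GC-corrected). ABCC10 fell (-0.90, GC-corrected -0.38) and ABCC4 rose (0.49, GC-corrected 0.28). The fall of ABCC2 (-0.43, GC-corrected -0.62) was lost when any 1 library was left out, and the rise of ABCC3 (0.23, GC-corrected 0.65) without either shSCR library or without shJARID2 replicate 2. ABCC5 (0.04) did not pass.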
